A study of Zea mays with 322 samples.

Results

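Leaf miRNAs were examined in maize plants that carry 1 to 4 copies of the distal part of the short arm of chromosome 5 (5S), varied with the B–A translocation TB-5Sc. In such a translocation the end of a normal (A) chromosome arm is attached to a B chromosome centromere (B chromosomes are dispensable extras), whose frequent failure to separate in pollen yields relatives that differ in the copies of that arm. The plants were chosen by their sample labels, 24 of the 322 libraries of the study, in 6 groups of 4. In a diploid background these were monosomies (1D, 1 copy of 5S), diploid controls (2D, 2 copies), trisomies (3D, 3 copies) and tetrasomies (4D, 4 copies). In a haploid background they were haploid controls (h1D, 1 copy) and disomies (h2D, 2 copies). Each library came from the leaves of 1 plant grown in the greenhouse for 45 days, so the replicates are separate plants. Plants with a varied dosage can also carry B chromosome material that their controls lack, and only the labelled dosage was used here.

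The deposited tables hold 64 MIRNA loci, of which 34 carry the name of a known miRNA. Loci on the varied arm are cis and all others are trans. By the study's list for TB-5Sc, 5 loci are cis (MIR390b, MIR167c, MIR166f, MIR171f and MIR171m) and 59 are trans. The tables hold no marker genes, so the leaf label was not checked against them.

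Plant miRNAs of about 21 bases guide Argonaute proteins to messenger RNAs, which are then cleaved or translated less. The families encoded on 5S mostly act on regulators of development. miR390 starts the production of TAS3 small RNAs, which in turn repress auxin response factors, and miR167 represses another set of auxin response factors directly. miR166 represses class III HD-ZIP transcription factors, which specify the upper side of the leaf. miR171 represses GRAS transcription factors of the HAIRY MERISTEM group. Each family is encoded at several places in the genome, so a change in the copies of one arm alters only some of its genes.

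The mature sequences of the cis loci are shown because a read with the same sequence could have come from elsewhere. They were taken from the study's own locus list and are written 5′ to 3′, with the seed (bases 2 to 8) in capitals.
MIR390b: aAGCUCAGgagggauagcgcc
MIR167c: aUCAUGCUguggcagccucacu
MIR166f: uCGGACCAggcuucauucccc
MIR171f: uGAUUGAGccgugccaauauc
MIR171m: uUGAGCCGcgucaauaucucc
MIR166k: uCGGACCAggcuucaaucccu

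MIR390b and MIR167c were the only loci in the table with their mature sequences, and their seeds were not shared with another locus. Counts are of whole loci, so this does not show where the reads at MIR390b and MIR167c came from. MIR166f had the same mature sequence as MIR166g and MIR166i, both on chromosome 1. The mature sequence of MIR166j and MIR166k differed from it by U16A and C21U (positions counted from 1 at the 5′ end, MIR166f first), outside the seed that all 5 of these loci shared. MIR171f had the mature sequence of MIR171e, MIR171i and MIR171n. MIR171m had that of Cluster_42505, a locus without a miRNA name on chromosome 1. Shifted by 3 bases against each other, the sequences of MIR171f and MIR171m shared 16 of 18 overlapping bases. Altogether 6 trans loci had the mature sequence of a cis locus.

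On the W22 genome, in the coordinates of the study's list, the cis loci lay on chromosome 5 within 18.1 Mb. MIR390b was at chr5:2743152-2743352, MIR167c at chr5:4442863-4443043, MIR166f at chr5:8409999-8410286, MIR171f at chr5:9157057-9157171 and MIR171m at chr5:20803808-20804107. The same list places MIR166g at chr1:14797065-14797291, MIR166i at chr1:247229960-247230120 and Cluster_42505 at chr1:251995167-251995382. Exons and introns at these positions were not looked up, since no annotation of that genome build was used here.

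The libraries held 861399 to 1580340 mapped reads, of which 21620 to 91129 lay on the 64 loci. MIR166f, MIR166g and MIR166i together took 93.1 to 97.8% of these counts. Of the mapped reads, the loci took 2.40% ± 0.344 (SD, n = 3) in 1D, 3.57% ± 0.536 (n = 4) in 2D, 3.87% ± 1.09 (n = 3) in 3D and 5.06% ± 0.734 (n = 4) in 4D. They took 4.19% ± 0.563 in h1D and 4.71% ± 0.781 in h2D (n = 4 each). None of the 5 differences passed an exact two-sided permutation test after adjustment over the 5 comparisons (4D/2D p = 0.0286, adjusted 0.0952; 1D/2D p = 0.0571, adjusted 0.0952). The smallest p possible was 0.0286 for 4 against 4 and 0.0571 for 3 against 4. No difference could thus pass after adjustment, so this test cannot decide whether the percents differed. All 4D plants (4.62 to 6.15%) lay above all 2D plants (2.88 to 4.15%), while 1D (2.18 to 3.07%) overlapped 2D. Since MIR166f, MIR166g and MIR166i took most counts, levels are given below as RPM (reads per 1000000 mapped reads), not as shares of the table. In bulk leaf, fewer cells that express a locus and less RNA per cell cannot be told apart.

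Counts of plants 5SCS5 and 5SCS11 (1D) differed by no more than sampling noise (chi-square p = 0.122 over 25 loci), as did those of 5SCS24 and 5SCS25 (3D, p = 0.0665 over 23 loci). Each pair was counted as 1 sample, so that n was 3 in these groups, although the percent of reads on the loci differed within both pairs (chi-square p = 6.67e-134 and 6.31e-05). Values are given for all plants. Keeping all plants apart changed the number of calls in the trend, as given with the counts over all loci. The comparisons 1D/2D, 3D/2D and 4D/2D share the 2D plants, and 4D/2D and 4D/3D share the 4D plants, so these comparisons are not independent of each other.

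The cis loci MIR167c and MIR171m were called higher in both 4D/2D and h2D/h1D. MIR167c was also called higher in plants with 1 B chromosome, so its dosage results cannot be told apart from B material, as given below. The other tested cis loci were not called there, which does not separate 5S copies from B material for them. MIR390b was called higher in h2D/h1D, and MIR166f lower in 1D/2D and higher in 4D/2D. All 4 cis loci that passed the expression filter rose with 5S copies over 1D to 4D, with slopes from 0.54 to 1.44 on log2 scales, where a slope of 1 is proportional to copies. Without the 4D plants none of these slopes was called. MIR171f was hardly detected. The filter was a mean of at least 0.5 RPM over the groups compared, and a call was an FDR below 0.05 in edgeR's quasi-likelihood test with Benjamini-Hochberg adjustment over all loci tested.

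**Figure D1:**
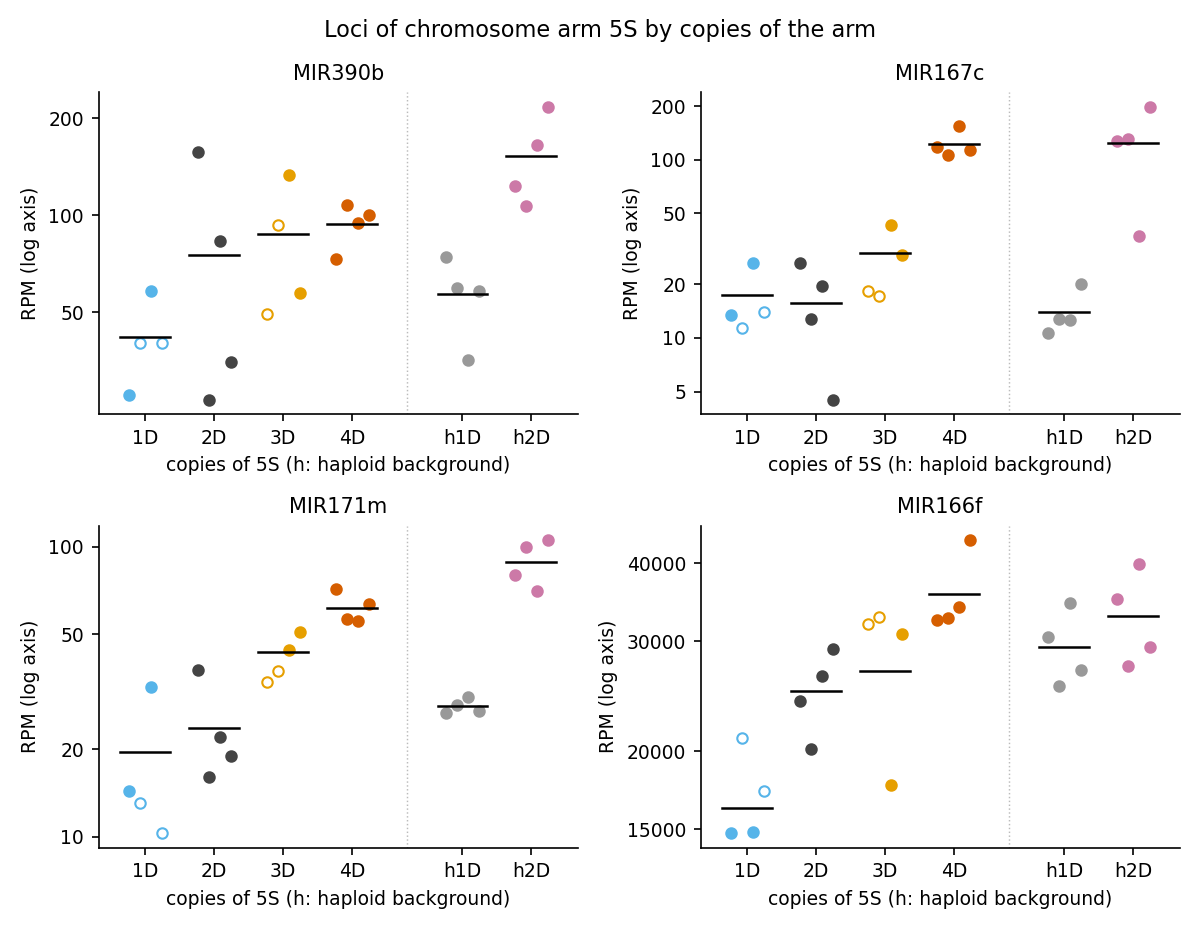
Level of MIR390b, MIR167c, MIR166f and MIR171m in each plant (RPM, log axis) by group, with a bar at the group mean and hollow points for plants counted as a pair. MIR167c stayed between 4.51 and 43 RPM in the 12 plants of 1D, 2D and 3D and was 107 RPM or more in all 4 plants of 4D.

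MIR167c, a locus of the miR167 family, was at 11.4, 13.4, 14 and 26.2 RPM in the 1D plants and at 4.51, 12.9, 19.5 and 26.3 RPM in the 2D plants. Which messenger RNAs the sequence shown for this locus acts on was not examined. In 3D it was at 17.2, 18.3, 29.2 and 43 RPM, and in 4D at 107, 113, 118 and 155 RPM. The first 3 groups overlapped and every 4D plant lay above all of them. The level in 4D was 7.79-fold that in 2D (95% interval 4.76 to 12.7, edgeR FDR = 4.79e-13) and 4.27-fold that in 3D (2.80 to 6.52, FDR = 4.62e-09). By contrast the log2 fold change was 0.14 ± 0.48 (SE) for 1D/2D (edgeR FDR = 0.947) and 0.89 ± 0.47 for 3D/2D (FDR = 0.738). The 2D plant at 4.51 RPM (5SCS6) rested on 5 reads.

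The same locus was at 10.7, 12.6, 12.8 and 20.1 RPM in h1D and at 37.3, 127, 131 and 199 RPM in h2D. No h2D plant reached down to the haploid controls, and the lowest (5Sch5) lay well apart from the other three. The fold was 8.74 (95% interval 4.99 to 15.3, edgeR FDR = 3.25e-06). The slope on log2 copies over 1D to 4D was 1.44 ± 0.18 (SE, edgeR FDR = 8.92e-13), and its interval of 1.08 to 1.80 lay above 1. Over 1 to 3 copies alone it was 0.42 (interval -0.15 to 0.98, edgeR FDR = 0.488), so the trend of this locus rested on the 4D plants. The slopes of the other tested cis loci over 1 to 3 copies were not called either. They were 0.67 for MIR390b (edgeR FDR = 0.0849), 0.48 for MIR166f (FDR = 0.0615) and 0.68 for MIR171m (FDR = 0.0948).

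MIR171m, whose miRNA represses GRAS factors, was at 10.3, 13.1, 14.4 and 32.8 RPM in 1D, at 16.1, 18.9, 22 and 37.4 RPM in 2D, at 34.3, 37.2, 44.1 and 50.6 RPM in 3D and at 55.7, 56.2, 63.4 and 71.3 RPM in 4D. All 4D plants lay above all 3D plants, and 3D overlapped 2D in 1 plant of 2D. The 4D/2D fold was 2.60 (1.60 to 4.22, edgeR FDR = 0.0026), a call lost without the 4D plant 5SCS20. The log2 fold change was -0.27 ± 0.46 for 1D/2D (edgeR FDR = 0.899), 0.87 ± 0.44 for 3D/2D (FDR = 0.738) and 0.52 ± 0.30 for 4D/3D (FDR = 0.459). In the haploid background it was at 26.8, 27.1, 28.4 and 30.4 RPM in h1D and at 70.4, 79.7, 100.01 and 105 RPM in h2D, without overlap, a 3.16-fold difference (2.24 to 4.46, FDR = 1.56e-05).

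The slope of MIR171m on log2 copies was 0.87 ± 0.19 (edgeR FDR = 0.00011), and its interval of 0.48 to 1.25 held 1. With trimmed-mean (TMM) scaling on the totals of the table, the 4D/2D log2 fold change was 0.90 and was no longer called (edgeR FDR = 0.119). MIR171m took 83.3 to 100% of the counts of the 2 loci with its mature sequence. After the counts of both were added, the log2 fold change was 1.33 for 4D/2D (edgeR FDR = 0.00553) and 1.69 for h2D/h1D (FDR = 1.32e-05).

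MIR390b, the trigger of TAS3 small RNAs, was at 27.8, 40.2, 40.2 and 58.3 RPM in 1D and at 26.8, 35.1, 83.1 and 157 RPM in 2D. It was at 49.4, 57.4, 93.4 and 134 RPM in 3D and at 73.1, 94.9, 100.6 and 108 RPM in 4D. The 2D plants spanned nearly the whole range of the diploid background, and no comparison with them passed the test. The log2 fold change was -0.83 ± 0.40 for 1D/2D (edgeR FDR = 0.332), 0.20 ± 0.39 for 3D/2D (FDR = 0.972) and 0.32 ± 0.31 for 4D/2D (FDR = 0.652). Without the 2D plant at 157 RPM (5SCS17) the 4D/2D value was 0.95 and was called. For 4D/3D the log2 fold change was 0.13 ± 0.28 (edgeR FDR = 0.949).

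In the haploid background MIR390b separated the groups, at 35.7, 58.5, 59.5 and 74.1 RPM in h1D and at 107, 123, 165.7 and 218 RPM in h2D. The fold was 2.68 (1.83 to 3.95, edgeR FDR = 0.000392). Over 1D to 4D its slope was 0.56 ± 0.19 (interval 0.19 to 0.93, edgeR FDR = 0.0211), below proportionality to copies. TMM scaling gave 0.39 (edgeR FDR = 0.123), which was not called, and neither was the slope without the 1D plant 5SCS10.

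MIR166f, whose miRNA represses class III HD-ZIP factors, was at 14796, 14835, 17282 and 21047 RPM in 1D and at 20170, 24117, 26437 and 29187 RPM in 2D. In 3D it was at 17649, 30834, 31944 and 32791 RPM, and in 4D at 32442, 32656, 34124 and 43590 RPM. Every 4D plant exceeded every 2D plant, only 1 plant of 1D reached the range of 2D, and 1 plant of 3D (5SCS42) lay far below the other three. The log2 fold change was -0.62 ± 0.16 for 1D/2D (edgeR FDR = 0.00575), 0.11 ± 0.27 for 3D/2D (FDR = 0.972), 0.52 ± 0.14 for 4D/2D (FDR = 0.00394; 1.43-fold) and 0.41 ± 0.27 for 4D/3D (FDR = 0.459). In the haploid background it was at 25450, 27042, 30514 and 34532 RPM in h1D and at 27407, 29349, 35125 and 39894 RPM in h2D. These groups overlapped, with a log2 fold change of 0.16 ± 0.16 (edgeR FDR = 0.464). The slope on log2 copies was 0.54 ± 0.09 (interval 0.35 to 0.72, edgeR FDR = 3.52e-07), and it stayed called whichever plant was left out. The 4D/2D call was lost without any 1 of the 4D plants (log2 fold changes 0.41 to 0.60 over all plants left out). The 1D/2D call was lost without 5SCS5, 5SCS10 or 5SCS18 of 1D, or 5SCS4 or 5SCS17 of 2D (-0.71 to -0.53).

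MIR166g and MIR166i carry the same mature sequence but lie on chromosome 1, in 2 copies in every diploid plant. MIR166g was at 5453 to 7877 RPM in 1D, 7459 to 10800 RPM in 2D, 6592 to 12069 RPM in 3D and 12053 to 16134 RPM in 4D. Its levels followed those of MIR166f: the log2 fold change was -0.60 ± 0.19 for 1D/2D (edgeR FDR = 0.0301) and 0.51 ± 0.16 for 4D/2D (FDR = 0.0176), and the slope was 0.53 ± 0.10 (FDR = 9.0e-06). Both calls of MIR166g were lost with DESeq2 (FDR = 0.305 and 0.115) and with all 4 diploid groups in 1 edgeR fit (FDR = 0.0858 and 0.0780). Leaving out 1 plant lost the 1D/2D call in 6 of 8 fits (-0.69 to -0.52) and the 4D/2D call in 4 of 8 (0.40 to 0.59). MIR166i had a slope of 0.39 ± 0.16 (edgeR FDR = 0.064), which was called with all plants kept apart, with DESeq2 and at a mean RPM of at least 2.

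MIR166f took 71.4 to 72.7% of the counts of the 3 loci in all 24 plants. Its mean share was 72.05% in 1D, 72.35% in 2D, 72.34% in 3D, 72.44% in 4D, 72.20% in h1D and 72.52% in h2D. The largest of the 5 differences in size was 0.322 percentage points for h2D/h1D (exact two-sided permutation p = 0.114, adjusted 0.476). The 4D/2D difference was 0.0880 points (exact permutation p = 0.229, adjusted 0.476). At these sample sizes no difference could pass this test after adjustment, so it cannot decide whether the shares differed. A ratio within a library does not depend on scaling, but identical reads could have been placed at any of the 3 loci, and how they were placed was not tested. The sum over the 3 loci had a log2 fold change of -0.61 for 1D/2D (edgeR FDR = 0.00846) and 0.51 for 4D/2D (FDR = 0.00553).

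**Figure D2:**
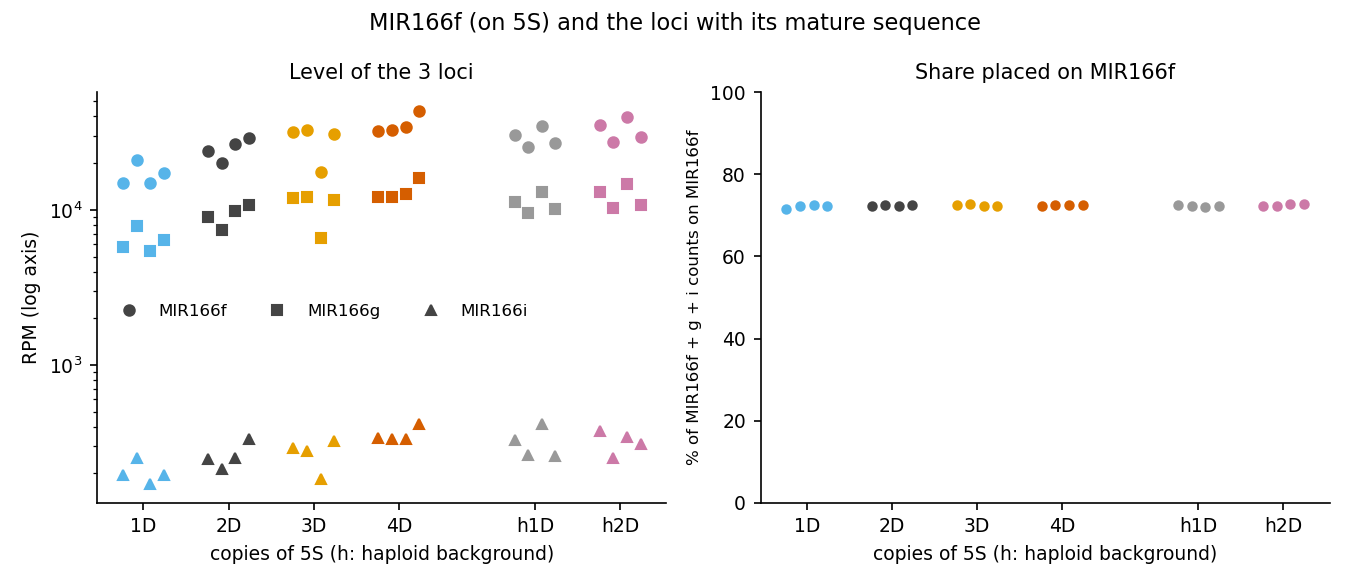
Left, level of MIR166f, MIR166g and MIR166i in each plant (RPM, log axis) by group, and right, percent of their summed counts at MIR166f in each plant with 95% Wilson intervals, which cover counting error only. The share lay between 71.4 and 72.7% in every plant, while the levels of MIR166f ran from 14796 to 43590 RPM.

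These 3 loci hold nearly all counts, and the calls of MIR166f moved with the scaling and the tool. For 4D/2D the log2 fold change of MIR166f was 0.02 with TMM (edgeR FDR = 0.131), 0.24 with median-of-ratios factors (FDR = 0.359) and 0.01 with table totals (FDR = 0.122). For 1D/2D it was -0.59 with TMM (edgeR FDR = 0.266), -0.67 with median-of-ratios factors (FDR = 0.00479) and -0.05 with table totals (FDR = 3.43e-05). DESeq2 with mapped reads as size factors called neither 1D/2D (log2 fold change -0.62, FDR = 0.305) nor 4D/2D (0.52, FDR = 0.115), and with all 4 diploid groups in 1 edgeR fit 1D/2D was not called (FDR = 0.0858). The uncalled values of 3D/2D and h2D/h1D turned negative under all 3 scalings. The percent of mapped reads taken by the loci, given above, is therefore mostly the level of these 3 loci and no separate measure. The 4D/2D ratio was 1.42 for that percent, 1.43 for the summed RPM of the 3 loci and 1.11 for that of all other loci. What sets the level was not tested.

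MIR171f, which has the same mature sequence as MIR171e, had 2 counts in all 24 plants, 1 in a 1D plant and 1 in an h1D plant. It was at 0 in 2D, 3D, 4D and h2D, where a count of 0 over the 4 plants allows up to 0.712, 0.706, 0.568 and 0.560 RPM, for counting error only. No response to dosage was detectable at this depth. MIR171e, on chromosome 1, was at 8.23 to 41.8 RPM in the diploid background.

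**Figure D3:**
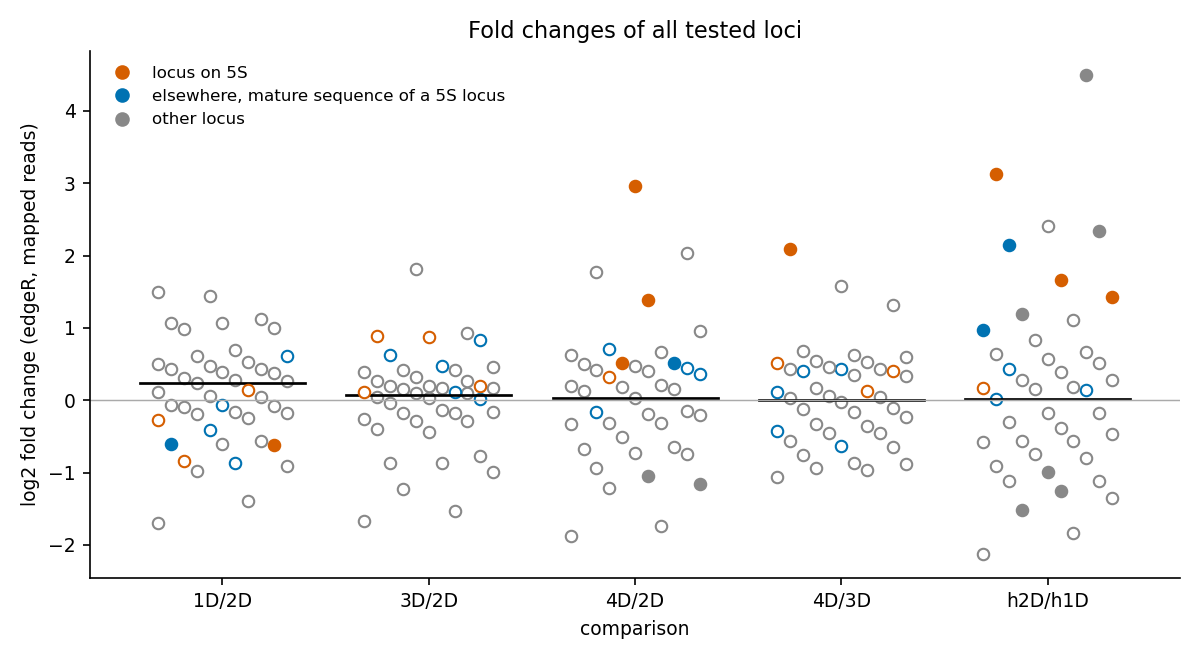
Log2 fold change (edgeR) of each tested locus in the 5 comparisons, with cis loci in orange, trans loci with a cis mature sequence in blue, other loci in grey, filled points for FDR below 0.05 and a black bar at the median of the trans loci. The fitted value of the highest point, MIR319c in h2D/h1D, is no bound since h1D had no count, and in h2D/h1D 3 of the 4 cis loci were called higher, with a cis median of 1.54 against 0.02 for the trans loci.

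Across all loci, 2 of 45 were called in 1D/2D, which is 4.44% of those tested, and both were lower (MIR166f and MIR166g). The split of counts between MIR166f and MIR166g was nearly constant. Their calls here, in 4D/2D and in the trend are therefore not separate results. Table totals gave 8 calls there, 7 higher and 1 lower, with the median of all loci moved by 0.51, and TMM and DESeq2 gave none. None of 44 was called in 3D/2D (0%) by edgeR, with 2 at an unadjusted p under 0.05, and none by DESeq2, while TMM called 1 lower (MIR399e). In 4D/2D 6 of 41 were called (14.6%), 4 higher and 2 lower, and 3 of the higher ones were cis. TMM gave 1 higher and 4 lower, and median-of-ratios factors gave 2 higher and 3 lower. In 4D/3D 1 of 42 was called (2.38%), the cis locus MIR167c, TMM added 2 lower loci and table totals called none. In h2D/h1D 11 of 43 were called (25.6%), 8 higher and 3 lower. The trend called 7 of 44 loci (15.9%), 5 rising and 2 falling, against 4 rising and 8 falling with TMM and 8 rising and 6 falling with all plants kept apart. The 7 added by keeping plants apart were MIR156j, MIR164e, MIR166i, MIR171g, MIR172d, MIR319a and Cluster_158979.

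The cis loci were few, and 4 of 5 were tested in each comparison. For 1D/2D the median of their log2 fold changes was -0.44, against 0.12 for all loci tested. For 3D/2D it was 0.53 against 0.11, for 4D/2D 0.95 against 0.16, for 4D/3D 0.46 against 0.06 and for h2D/h1D 1.54 against 0.16. The trend called all 4, with a median slope of 0.71 against -0.08. Among the comparisons, 4D/2D and h2D/h1D each called 3, 1D/2D and 4D/3D each called 1, and 3D/2D called none (2 of all loci at an unadjusted p under 0.05, edgeR). The 6 trans loci with the mature sequence of a cis locus (5 tested) had 1 lower in 1D/2D, 1 higher in 4D/2D and 2 higher in h2D/h1D, where 4.44, 14.6 and 25.6% of all loci were called. TMM moved the median of all loci by -0.44 for 4D/2D, by -0.37 for 3D/2D and by -0.27 for h2D/h1D, so directions near 0 are relative to mapped reads.

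**Figure D4:**
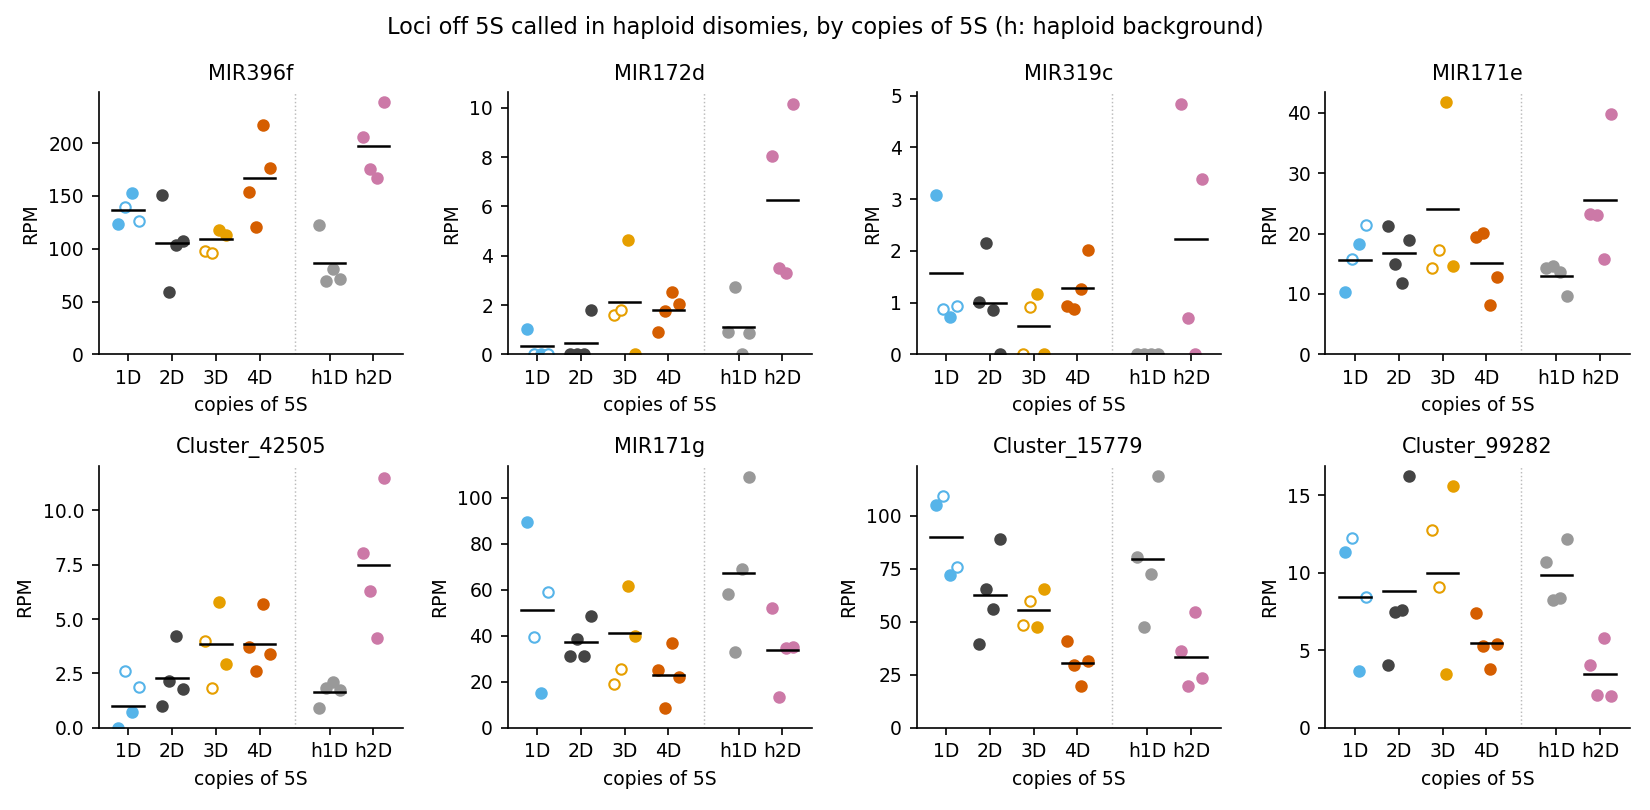
Level (RPM) of the 8 trans loci called in h2D/h1D in each plant by group, with a bar at the group mean and hollow points for plants counted as a pair. Cluster_15779 ran from 72.1 to 109 RPM in 1D down to 19.6 to 40.7 RPM in 4D, and MIR396f from 69.5 to 122 RPM in h1D up to 167.3 to 239 RPM in h2D.

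Among the trans loci, Cluster_15779 was the one called in 4D/2D, h2D/h1D and the trend, each time lower with more 5S. This locus without a miRNA name lies at chr1:74812358-74812506, and its mature sequence is shown for identification, again with the seed in capitals.
Cluster_15779: uUGGGAGCcacaaaacugaag
Its levels were 72.1, 75.7, 105 and 109 RPM in 1D, 39.5, 56, 65.4 and 89.2 RPM in 2D, 47.6, 48.6, 59.8 and 65.2 RPM in 3D and 19.6, 29.8, 31.7 and 40.7 RPM in 4D. The 1D and 4D plants did not overlap, the 3D plants lay between them, and the 2D plants ran from within the range of 4D to within that of 1D. In h1D it was at 47.6, 72.4, 80.4 and 119 RPM and in h2D at 19.6, 23.7, 36.2 and 54.7 RPM, overlapping in 1 plant. The log2 fold change was -1.04 ± 0.34 for 4D/2D (edgeR FDR = 0.0216) and -1.26 ± 0.32 for h2D/h1D (FDR = 0.00501), and the slope was -0.70 ± 0.18 (FDR = 0.00131). Its direction stayed negative in these 3 results under every scaling used. The 4D/2D call was lost without any 1 of the 4D plants or the 2D plant 5SCS6 (-1.21 to -0.82 over all plants left out), and the h2D/h1D call without 5Sch7.

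MIR396f encodes a miRNA that represses growth-regulating factors, which promote cell proliferation in leaves. It lies on the long arm of the same chromosome, at chr5:218605858-218606093, outside the varied segment.
MIR396f: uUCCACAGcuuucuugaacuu
It was at 69.5, 71.6, 80.8 and 122 RPM in h1D and at 167.3, 176, 206 and 239 RPM in h2D, without overlap, a 2.29-fold difference (1.63 to 3.21, edgeR FDR = 0.000497). In the diploid background it was at 58.9 to 151 RPM in 2D and 120 to 217 RPM in 4D, and was not called in the 4 diploid comparisons scaled to mapped reads, except in 4D/2D without the 2D plant 5SCS17. With table totals it was called in 1D/2D.

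MIR172d, of a family known to repress AP2-like factors that delay the adult phase, was at 0, 0.873, 0.893 and 2.74 RPM in h1D and at 3.31, 3.50, 8.05 and 10.1 RPM in h2D (log2 fold change 2.35 ± 0.66, edgeR FDR = 0.0103). The targets of its own listed sequence were not examined. MIR319c, whose miRNA represses TCP factors of leaf growth, had no count in h1D and was at 0, 0.699, 3.38 and 4.83 RPM in h2D. This is at least 3.20-fold higher against a floor of 3 counts over the h1D plants (edgeR FDR = 0.0275). Both rest on few reads, and the call of MIR319c was lost in 5 of 8 fits that left out a plant. MIR319a has the same mature sequence as MIR319c, and their added counts were not called (log2 fold change 1.21, edgeR FDR = 0.108). Cluster_42505, with the mature sequence of MIR171m, was at 0.893 to 2.10 RPM in h1D and 4.14 to 11.5 RPM in h2D (log2 fold change 2.15 ± 0.53, edgeR FDR = 0.00494). MIR171e was higher by 0.98 ± 0.32 (edgeR FDR = 0.0275), a call lost with TMM (0.70, FDR = 0.136). The added counts of MIR171e, MIR171f, MIR171i and MIR171n, which share a mature sequence, were not called either (0.73, edgeR FDR = 0.0602).

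Lower in h2D/h1D besides Cluster_15779 were Cluster_99282 and MIR171g, whose miRNA belongs to the GRAS-repressing family. Cluster_99282 was at 8.23, 8.39, 10.7 and 12.2 RPM in h1D and at 2.03, 2.10, 4.02 and 5.80 RPM in h2D (log2 fold change -1.52 ± 0.43, edgeR FDR = 0.0103). MIR171g was at 32.9 to 109 RPM in h1D and 13.3 to 52.3 RPM in h2D (-0.996 ± 0.354, edgeR FDR = 0.0406), and these ranges overlapped. Its call was lost in 5 of 8 fits without a plant, and that of MIR171e in 3 of 8. In the fit with counts of identical mature sequences added, MIR171g was not called (edgeR FDR = 0.0565). Without the h2D plant 5Sch7 only 5 loci were called (MIR390b, MIR167c, MIR171m, MIR396f and Cluster_42505).

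MIR399e encodes a miRNA that represses PHO2, a brake on phosphate uptake. It was at 15.3, 21.3, 21.4 and 35.6 RPM in 2D and at 5.55, 6.96, 7.02 and 21.6 RPM in 4D (log2 fold change -1.15 ± 0.41, edgeR FDR = 0.0351). Of the 4D plants, 5SCS38 lay within the range of 2D, and the call was lost in 5 of 8 fits that left out a plant (-1.83 to -0.87). The 3D plants were at 5.84 to 15.4 RPM, and 3D/2D was called with TMM alone of the scalings used. MIR156b, whose miRNA represses SPL factors and holds the juvenile phase, fell along the trend (slope -0.79 ± 0.29, edgeR FDR = 0.0436), from 4.37 to 12.1 RPM in 1D to 1.75 to 3.70 RPM in 4D, and this call was lost in 6 of 16 such fits (-0.89 to -0.65). With counts of identical mature sequences added, neither MIR399e in 4D/2D (edgeR FDR = 0.0534) nor the MIR156b trend (FDR = 0.0574) was called.

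By lists chosen with earlier results known, the growth and phase loci (12 tested) had 3 higher and none lower in h2D/h1D, where 25.6% of all loci were called, with a median of 0.23 against 0.16 for all loci. By edgeR scaled to mapped reads none of its members was called in 1D/2D, 3D/2D, 4D/2D or 4D/3D, where 2, 0, 1 and 2 had an unadjusted p under 0.05, and 1 (MIR156b) fell in the trend. Table totals called 5 of them in 1D/2D (MIR156b, MIR156j, MIR319a, MIR396c and MIR396f), and TMM called MIR396c in 4D/2D and 4D/3D. The loci without a miRNA name had 1 higher and 2 lower of 13 tested in h2D/h1D, against the same 25.6%, with a median of -0.91. Of the starvation and stress loci, 2 were tested and 1 (MIR399e) was called, in 4D/2D, where 14.6% of all loci were called. With 2 loci tested this count says nothing about the list. The other loci of the cis families had 1 call (MIR171g, lower in h2D/h1D) of 6 tested there and none in the diploid comparisons by edgeR scaled to mapped reads. MIR171g was also called in 4D/2D with TMM and with median-of-ratios factors, and MIR166k in 1D/2D with table totals.

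A doubling of 5S can be followed from 1 to 2 copies in haploids and diploids and from 2 to 4 copies in diploids. By the study's sample list the haploid step was sequenced in another pool than the diploid steps, so each step was measured against its own controls and only the steps were compared. The haploid doubling exceeded that of 1 to 2 copies in diploids at 2 of 42 loci (4.76%), MIR167c (log2 difference 3.27 ± 0.57, edgeR FDR = 7.88e-06) and MIR396f (1.57 ± 0.41, FDR = 0.00498). For MIR171m this difference was 1.38 ± 0.48 (edgeR FDR = 0.0603). Against the step from 2 to 4 copies, none of 42 loci passed (0%) in edgeR, with 3 at an unadjusted p under 0.05 (MIR390b, MIR171e and MIR319c). The difference was 1.11 for MIR390b (interval 0.16 to 2.05, unadjusted p = 0.0224 in edgeR) and 1.14 for MIR171e (0.08 to 2.20). There the difference for MIR167c was 0.17, with an interval of -0.89 to 1.22, and that for MIR171m was 0.28, with an interval of -0.61 to 1.17.

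The line TB-10L18 also has 1 to 4 copies, of the long arm of chromosome 10, and keeps 2 copies of 5S. Its 16 plants show how the 5S loci behave when another arm is varied. MIR167c was at 10.6 to 29.5 RPM in the 10L tetrasomies, with a slope of -0.16 ± 0.16 on 10L copies, and MIR171m had a slope of -0.13 ± 0.13. MIR390b fell with 10L copies, from 133 to 160 RPM in monosomies to 28.4 to 100 RPM in tetrasomies (slope -0.60 ± 0.16, edgeR FDR = 0.00696). The slopes of the 2 lines differed at 10 of 42 loci (23.8%). All 4 tested cis loci were among them, with differences of 1.60 for MIR167c (edgeR FDR = 0.000119), 1.159 for MIR390b (FDR = 0.00133), 1.00 for MIR171m (FDR = 0.000709) and 0.34 for MIR166f (FDR = 0.0255). With median-of-ratios factors the last was 0.19 and was not called (edgeR FDR = 0.343).

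**Figure D5:**
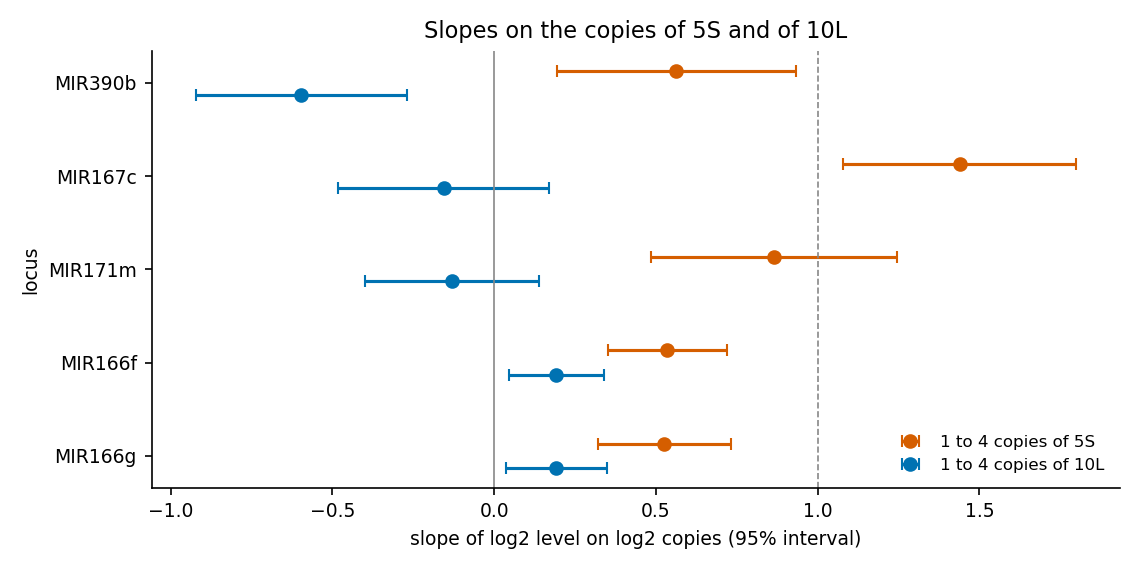
Slope of log2 level on log2 copies with 95% intervals for the 5S line (orange) and the 10L line (blue), where the dashed line marks a slope of 1. The slope of MIR167c was 1.44 in the 5S line and -0.16 in the 10L line, and that of MIR166f was 0.54 and 0.19.

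Plants with a changed number of whole genomes reach the same copies of 5S without imbalance between arms. Levels in RPM are relative to the library, not per cell. The paper states that on such a scale changes with ploidy would be canceled by cell and transcriptome size. The values below therefore do not give the response per cell to whole-genome copies. In tetraploids (4 genomes) against their diploid controls, MIR167c was at 16.2 to 25.1 RPM against 10.2 to 23.1 RPM, and MIR166f at 29636 to 35420 RPM against 32536 to 41466 RPM. The response of 4D/2D differed from that of tetraploids at 3 of 42 loci (7.14%), all higher in 4D/2D. These were MIR167c (log2 difference 2.53 ± 0.56, edgeR FDR = 0.00212), MIR166f (0.73 ± 0.17, FDR = 0.00212) and MIR166g (0.72 ± 0.19, FDR = 0.00708). MIR166f and MIR166g are not separate results here, since the split of counts between them was nearly constant. With TMM the value of MIR166f was 0.30 and was not called (edgeR FDR = 0.448). For MIR171m the difference was 1.01 ± 0.51 (edgeR FDR = 0.301). Between 1D/2D and haploids against diploids, none of 45 loci differed (0%) by edgeR, with 5 at an unadjusted p under 0.05, and MIR166f had a difference of -0.51 ± 0.17 (FDR = 0.139).

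Plants with 1 B chromosome (1B) were set against plants with none (0B), in 8 libraries, because plants with varied 5S dosage can carry B material. Of 44 loci 1 was called (2.27%), and it was MIR167c. The paper called MIR167c and also MIR167h in this comparison and left both out of its further analysis. Its stated reason is that effects of A and B segments on them are hard to tell apart. It was at 12.8, 18.8, 21.2 and 23.1 RPM in 0B and at 36.6, 59.8, 76.4 and 82.1 RPM in 1B, without overlap. The fold was 3.21 (1.75 to 5.90, edgeR FDR = 0.00905; n = 3 in 1B after 1 pair of plants was joined). The other tested cis loci were not called, with log2 fold changes of -0.08 for MIR390b, 0.45 for MIR166f and 0.53 for MIR171m. MIR166f was at 18978 to 30610 RPM in 0B and at 29417 to 32109 RPM in 1B. MIR171m was at 23.1 to 38.4 RPM in 0B and at 25.9 to 55.7 RPM in 1B. For MIR167c, copies of 5S and of B chromosome material cannot be told apart within 4D/2D and h2D/h1D. The lack of a call does not tell them apart for the other cis loci either.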

How the data were processed

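Small RNAs of maize leaves were sequenced. Per the labels and methods, the authors used cutadapt 1.16 for trimming, filtered on quality, took out structural RNAs with Bowtie2, placed the rest on the W22 genome and the organelle genomes with ShortStack, and deposited raw counts per locus. The deposited RPM values are these counts per 1000000 mapped reads of the library. Dividing counts by RPM gave the mapped reads (largest relative spread 1.85e-09). How reads that match several loci were placed is included in the counts and was not tested. All columns were matched to plants by name, with 0 left over.

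The quasi-likelihood test of edgeR 4.0.16 (under R 4.3.3) was run on counts, 1 fit per comparison, with mapped reads as library size, no further factors, loci of mean RPM at least 0.5 and Benjamini-Hochberg adjustment over all loci tested, called at an FDR below 0.05. The trend used log2 copies of 1D to 4D. Slopes, doublings and ploidy responses were compared in 1 fit each. Each of the 5 comparisons lay within 1 sequencing pool. Plants of a group whose counts did not differ by a chi-square test (p above 0.05, loci with at least 10 counts) were joined. Shares were tested by exact permutation. The fitting code was run on counts simulated with the same fixed spread between plants at all loci. This checked the code and not the error rate in these plants. Alternatives were other scalings, DESeq2 1.42.0, other filters, all plants kept apart and leaving out each plant. Python 3.11.15, numpy 2.4.6, pandas 2.3.3, scipy 1.17.1 and matplotlib 3.10.9 were used. Intervals are 95% and cover counting error only where they are Wilson intervals. Reads carry no molecular identifiers.

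The loci named are the 5 of TB-5Sc, loci with their mature sequences, and trans loci called in a comparison or the trend, in full for the 12 with the smallest p. MIR390b, MIR167c and the other members and lists were chosen with earlier results of these data known.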

Additional observations from a re-analysis of the deposited data

Results flagged for a closer look

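A plant was set apart when its gap to the nearest plant of its group of 4 exceeded the 95% critical share of the group's range in Dixon's test. This held for 12 of 108 groups examined, and chance gives about 1 in 20 (5 percent) for independent groups. The groups are not independent, since MIR166f, MIR166g, MIR166i and the percent of reads on the loci largely repeat 1 measure. The 12 therefore cannot be read as an excess over chance. The 3D plant 5SCS42 was low in MIR166f (17649 RPM, others 30834 to 32791) and MIR166g (6592 RPM, others 11516 to 12069), high in MIR171e (41.8 RPM, others 14.3 to 17.2) and placed 2.62% of mapped reads at the loci (others 4.403 to 4.63%). The 4D plant 5SCS38 was high in MIR166f (43590 RPM), MIR166g (16134 RPM), MIR166i (416 RPM) and MIR399e (21.6 RPM, others 5.55 to 7.02), and placed 6.15% of mapped reads at the loci (others 4.62 to 4.85%). The remaining cases rest on few counts. MIR172d was at 1.03 RPM in the 1D plant 5SCS10 and at 1.80 RPM in the 2D plant 5SCS6, with the others of each group at 0, and MIR319c was at 3.09 RPM in 5SCS10.

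Effects that differed between lines or backgrounds by edgeR's test of the difference are given as log2 values. The haploid doubling exceeded the step from 1 to 2 copies in diploids for MIR167c (3.27, edgeR FDR = 7.88e-06) and MIR396f (1.57, FDR = 0.00498). The slope of the 5S line exceeded that of the 10L line for MIR167c (1.60), Cluster_42505 (1.27, edgeR FDR = 0.0218), MIR390b (1.159), MIR171m (1.00), MIR166k (0.56, FDR = 0.0339), MIR166f (0.34) and MIR166g (0.33, FDR = 0.0357). It lay below that of the 10L line for MIR156b (-1.29, edgeR FDR = 0.00411), MIR171g (-1.25, FDR = 0.00133) and Cluster_15779 (-0.70, FDR = 0.0218). Relative to mapped reads, not per cell, the response of 4D/2D exceeded that of tetraploids for MIR167c (2.53, edgeR FDR = 0.00212), MIR166f (0.73, FDR = 0.00212) and MIR166g (0.72, FDR = 0.00708).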

How the results depend on the processing

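Of the settings other than leaving out a plant, 393 results of named loci were compared with the main values, and in 0 of them had a locus turned direction while called. Counts of called loci moved more. In 1D/2D they went from 2 to 0 with TMM, with DESeq2 and with all 4 diploid groups in 1 fit, and to 8 with the totals of the table. In 3D/2D they went from 0 to 1 with TMM, and in 4D/2D from 6 to 3 with DESeq2. In 4D/3D they went from 1 to 3 with TMM, 2 with median-of-ratios factors and 0 with table totals. The trend went from 7 to 12 with TMM, 18 with table totals, 12 at a mean RPM of at least 2, 14 with all plants kept apart and 0 over 1 to 3 copies. Scalings for the tests of differences were chosen after seeing the data. With median-of-ratios factors and table totals, the haploid doubling against 1 to 2 copies gave 5 and 10 loci (2 before), 4D/2D against tetraploids 1 and 0 (3 before), and 1D/2D against haploids 1 and 5 (0 before). With table totals the 5S and 10L slopes differed at 5 loci (10 before) and 1B/0B called 0 (1 before). The cause of these shifts was not tested. Leaving out 1 plant at a time gave 0 to 2 called loci in 1D/2D, 0 in 3D/2D, 1 to 8 in 4D/2D, 1 to 2 in 4D/3D, 5 to 11 in h2D/h1D and 6 to 11 in the trend. In 4D/2D 8 came without 5SCS17 of 2D, and 1, 2, 2 and 3 without 5SCS20, 5SCS30, 5SCS34 and 5SCS38 of 4D. In the trend 11 came without 5SCS42 of 3D. MIR167c was called in every such fit of 4D/2D, 4D/3D, h2D/h1D and the trend. The difference in the MIR166f share ranged from -0.534 to 0.0209 points in 1D/2D and from -0.0525 to 0.0372 in 3D/2D, where all plants kept apart gave 0.0343. It was 0.0483 to 0.127 in 4D/2D, 0.0508 to 0.141 in 4D/3D and 0.233 to 0.425 in h2D/h1D. No paired analysis was possible because the labels give plant numbers only, so the replicate numbers used here pair nothing. Depth limits loci of a few RPM, where a plant contributes a handful of reads.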

Other observations

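The miR166 loci with another mature sequence, MIR166j and MIR166k, were not called in the 5S comparisons scaled to mapped reads, while table totals called MIR166k in 1D/2D and both in the trend. MIR166k was at 158.5 to 208 RPM in 1D, 77.2 to 198 RPM in 2D, 129 to 145 RPM in 3D and 146 to 177 RPM in 4D, while MIR166f changed between these groups as given above. MIR167h, of the family of MIR167c but on chromosome 6, was at 83.8 to 119 RPM in 1D and 57.9 to 102.8 RPM in 4D, and at 89.3 to 108 RPM in h1D and 95.1 to 124 RPM in h2D. The paper called MIR167h in 1B against 0B plants and left it out of its further analysis, while it was not called here. MIR171n, with the mature sequence of MIR171f, was at 5.61 to 21.6 RPM in 1D and 8.10 to 16.7 RPM in 4D, and had a slope of -0.02 on log2 copies of 5S.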
